A study of Triticum aestivum with 15 samples.

Results

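Dehydrin 3 is encoded on the wheat chromosomes 6A, 6B and 6D, and dehydrin 4 lies beside it on 6B. The 5 loci described here were chosen by their identifiers in the merged transcript catalogue of the study, out of 122017 loci in that catalogue. They are XLOC_089799 (dehydrin 3, 6A), XLOC_094800 (dehydrin 3, 6B), XLOC_098330 (dehydrin 3, 6D), XLOC_100237 (a transcript inside the 6D locus on the opposite strand, also listed as dehydrin 3) and XLOC_094799 (dehydrin 4, 6B). All 5 are in the study's table of water deprivation genes, which was drawn from loci that differed between treatments in these samples, so a higher level under dry conditions is not independent evidence here.

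Flag leaves of the hard red winter bread wheat cultivars TAM111 and TAM112 were collected from greenhouse plants at heading (HD), on day 79 after transplanting, and in the middle of grain filling (GF), on day 100. From jointing on, pots of the dry treatment were let down to a reduced soil water content and held there, while pots of the wet treatment were kept near full water. Each RNA sample pooled leaves of 4 plants. There are 15 RNA-seq libraries. Cultivar, stage and treatment make 8 groups, with 2 libraries in each except TAM111 HD wet, which has 1.

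Dehydrins are hydrophilic, largely disordered proteins of the late embryogenesis abundant (LEA) family. They accumulate in drying seeds and in leaves under drought, cold or abscisic acid (ABA), where they are thought to protect membranes and enzymes while cells lose water. Bread wheat is hexaploid, so most genes have a related copy, a homoeologue, in each of its A, B and D subgenomes, and dehydrin genes also occur in tandem on group 6.

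Levels are FPKM, fragments per kilobase of transcript per M mapped fragments, which allows comparison between genes of different length. FPKM of all rows on a locus were added. The depth of a library was estimated as 7.0 to 9.39 M fragments, from the confidence bounds of long genes with 1 transcript. The study reports more reads per sample than this after filtering, and the gap was not examined. Levels of 6 leaf loci (Rubisco activase, light-harvesting chlorophyll a-b binding proteins and a photosystem II polypeptide) were read beside the tissue label. All were above 0 in every library, with the lowest value of each locus between 0.371 and 3.05 FPKM. No other tissue was compared, so this cannot test the label. The summed FPKM of these loci was 176 to 544 in the 8 dry libraries and 37.2 to 336 in the 7 wet libraries. The cultivar labels were checked with loci specific to a cultivar, those at an FPKM of 1 or more in each of its libraries at the other stage and at 0.1 or less in each library of the other cultivar. Of loci specific to TAM112, 38.4% had an FPKM of 1 or more in TAM111 HD dry replicate 1 and 47.9% in TAM111 GF wet replicate 1, against 4.11% to 21.5% in the other TAM111 libraries and 71.1% to 80.8% in TAM112. These libraries stand apart from their label, and results for the members without both are given where a call, or a count at an unadjusted p below 0.05, changes.

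The only member-specific sequences in the sources used here were the primers that the study designed for quantitative PCR on XLOC_100237 on 6D. They are shown because they are the sequences the study used for this locus, and are written 5′ to 3′.
forward primer: atagtacaaaacgtcccggc
reverse primer: ggccacctctgcagaataat

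The catalogue places the loci on the chromosome parts of the IWGSC RefSeq v1.0 assembly. The dehydrin 3 locus on 6A runs from chr6A_part2:129823863-130076509 on the plus strand and holds 3 reference genes, TraesCS6A01G350500, TraesCS6A01G350600 and TraesCS6A01G350700. The locus on 6D, at chr6D_part1:435711653-435750723 on the plus strand, holds TraesCS6D01G333000 and TraesCS6D01G333100, which are 37361 bases apart. On 6B the locus lies at chr6B_part2:206400160-206454279 on the plus strand and holds TraesCS6B01G383600. Dehydrin 4, TraesCS6B01G383500 at chr6B_part2:206325786-206326856, ends 126562 bases before that gene. Every reference gene on these loci has 2 exons in each of its transcripts. XLOC_100237 lies at chr6D_part1:435750146-435750690 on the minus strand, with 358 of its 545 bases inside TraesCS6D01G333100 and 187 bases past the end of that gene.

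The dehydrin 3 loci are long because assembled transcripts join separate genes or reach far upstream. On 6A the assembled transcripts span introns of up to 251820 bases between TraesCS6A01G350500 and the other genes. On 6D an intron of 38203 bases joins TraesCS6D01G333000 to TraesCS6D01G333100. On 6B introns of 15277 to 53324 bases lie ahead of TraesCS6B01G383600. Whether these long introns are real or come from fragments aligned across related copies was not tested. In all 8 dry libraries a single row of the deposited table covered all 3 genes on 6A, against 2 of 7 wet libraries. In TAM111 HD dry replicate 2 a further row, at 22.4 FPKM, covered TraesCS6A01G350600 alone. On 6D a single row covered both genes in 5 of 8 dry and 5 of 7 wet libraries. The levels of the separate genes can therefore be read only in some libraries, and a row that spans several genes is a level of the cluster.

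**Figure D1:**
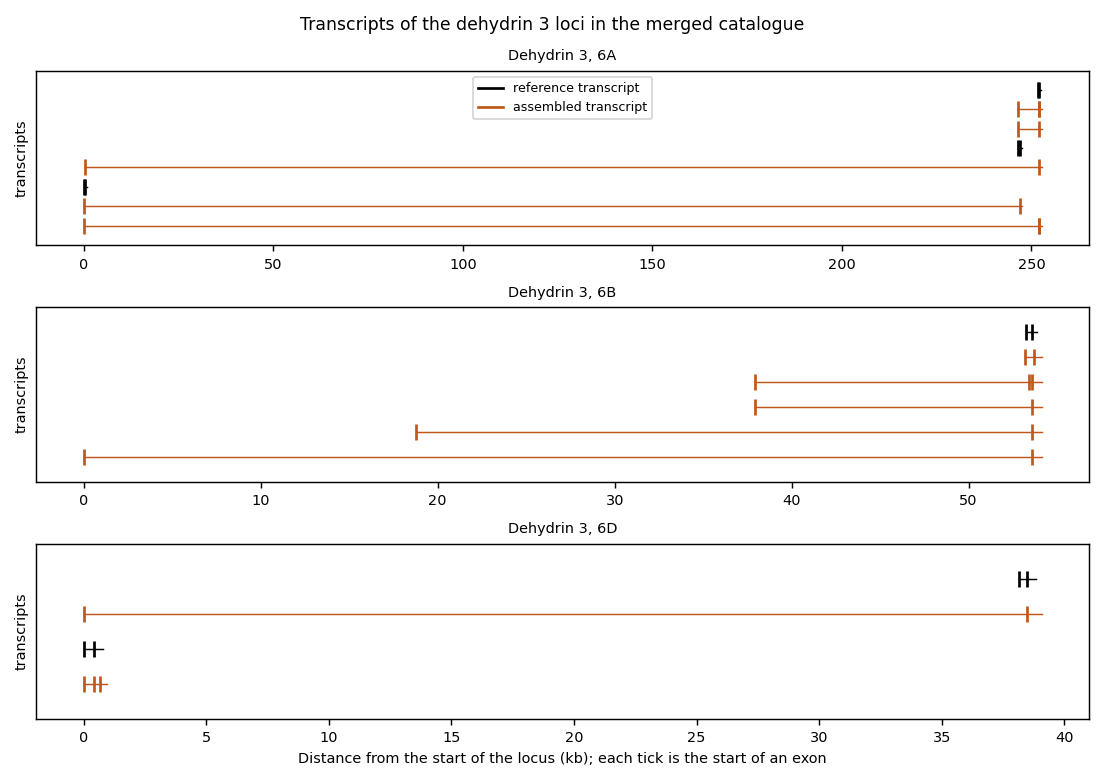
Transcripts of the dehydrin 3 loci on 6A, 6B and 6D, by distance from the start of the locus in kilobases, with each exon start as a tick. Reference transcripts (black) are short, and assembled transcripts (orange) reach across 252647 bases on 6A, 54120 bases on 6B and 39071 bases on 6D.

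Dehydrin 3 on 6D, a locus of 2 reference genes, had the highest summed level of the separable members in every dry library. Under dry conditions at GF its FPKM was 655 and 387 in TAM111 and 785 and 858 in TAM112. Under wet conditions at GF it was 7.77 and 18.4 in TAM111 and 10.004 and 13.3 in TAM112. The dry libraries lay at least 21.0 times above the highest wet library in TAM111 and 59.3 times in TAM112. In TAM112 both dry values are sums of separate rows for the 2 genes, while both wet values are a single spanning row. The value of 655 in TAM111 also includes the opposite strand row, at 145 FPKM. Fragments implied by the confidence bounds in TAM112 were 1591 and 1678 under dry and 37.4 and 33.2 under wet conditions. The part of the rows in these ratios was not tested. At HD the locus had an FPKM of 69.2 and 125 in TAM111 dry and 16.9 in the wet library. In TAM112 at HD it had 363 and 112 under dry and 12.9 and 13.2 under wet conditions. Dry and wet libraries did not overlap in any of the 4 comparisons, but groups hold only 1 or 2 libraries. How many of all tested loci separate in this way was not counted. Ranked by FPKM among all loci, the 6D locus stood between 82 and 206 in the dry GF libraries, between 265 and 1275 in the dry HD libraries and between 5056 and 11552 in the wet libraries.

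Dehydrin 3 on 6A followed the same order of groups. At GF its FPKM was 305 and 181 in TAM111 dry against 9.66 and 11.6 in wet libraries, and 406 and 456 in TAM112 dry against 5.31 and 6.37 in wet libraries. At HD it was 48.3 and 84.3 in TAM111 dry against 25.7 in the wet library, and 220.4 and 56.2 in TAM112 dry against 22.7 and 11.8 in wet libraries. The wet FPKM was 11.8 to 25.7 in the 3 HD libraries and 5.31 to 11.6 in the 4 GF libraries. The values of 25.7 and 22.7 came from single rows spanning all 3 genes, and the other wet values from shorter rows. Fragments implied by the confidence bounds overlapped, at 36.6 to 73.8 at HD and 19.0 to 54.6 at GF. The part of the rows in this stage difference was not tested, and the share of all tested loci that separate by stage was not counted. The gap between treatments was smallest in TAM111 at HD, where the lower dry library was 1.88 times the wet library.

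Dehydrin 3 on 6B had the lowest wet level of the 3 summed loci, but it holds 1 reference gene, against 3 on 6A and 2 on 6D. Against single genes the order varied. In TAM111 HD wet 6B had 14.4 FPKM against 10.4 and 6.52 for the 6D genes. In TAM111 GF wet replicate 1 it had 0.664 against 5.44 and 2.33. In TAM112 GF wet 6B lay between TraesCS6A01G350600 and TraesCS6A01G350700 in each library. At GF the FPKM of 6B was 269 and 166 in TAM111 dry against 0.664 and 8.12 in wet libraries, and 299 and 436 in TAM112 dry against 3.02 and 4.99 in wet libraries. At HD it was 51.7 and 70.4 in TAM111 dry against 14.4 in the wet library, and 195 and 59.7 in TAM112 dry against 10.99 and 6.05 in wet libraries. The lowest of these values, in TAM111 GF wet replicate 1, rested on about 1 fragment as implied by its confidence bounds, and that library is among those that stand apart from their label.

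Dehydrin 4 on 6B was near or at 0 without drought. It was listed at 0 in 6 of 7 wet libraries and at 0.596 FPKM in TAM111 GF wet replicate 1, which its confidence bounds put at about 1.20 fragments. At GF its FPKM was 29.9 and 15.5 in TAM111 dry and 175 and 104 in TAM112 dry. At HD it was 0.805 and 4.19 in TAM111 dry and 40.4 and 3.57 in TAM112 dry. No fold change is given against groups listed at 0. In the dry libraries dehydrin 4 reached 0.476% to 11.7% of the summed FPKM of the dehydrin 3 loci.

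**Figure D2:**
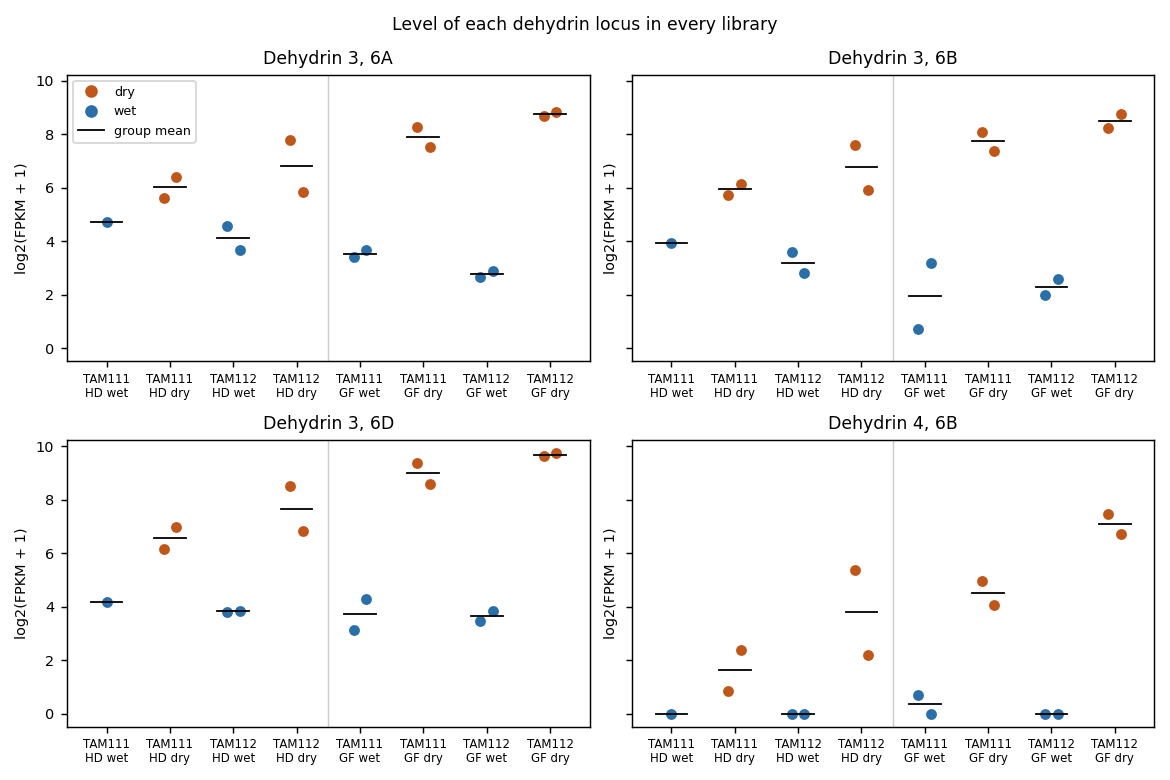
Levels of dehydrin 3 on 6A, 6B and 6D and of dehydrin 4 on 6B as log2(FPKM + 1) in each library (points; orange dry, blue wet), with group means (lines), for TAM111 and TAM112 at HD and GF. Dry and wet libraries did not overlap in any panel within a cultivar and stage, in groups of 1 or 2 libraries, and this was not counted over all tested loci. TAM112 HD dry replicate 1 was 3.25 to 11.3 times replicate 2 in linear FPKM.

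The FPKM of XLOC_100237 cannot be told apart from that of the 6D locus that surrounds it. The library kit does not mark strand, and only TAM111 GF dry replicate 1 had a row for this transcript itself, with an FPKM of 145 and confidence bounds of 126 and 164. In the other 14 libraries the rows that overlap it belonged to TraesCS6D01G333100 or spanned both 6D genes. Summed over those rows its FPKM was 69.2 to 387 in dry and 2.33 to 18.4 in wet libraries. It is left out of the counts below, which cover the 4 separable loci.

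The question of the dry and wet comparison was whether each locus differed between the treatments, in each cultivar and at each stage. The difference of log2(FPKM + 1) was tested with limma in a fit of all 15 libraries, with Benjamini-Hochberg adjustment over 52240 tested loci. Calls needed an adjusted p under 0.05 together with a difference of 1 or more. All 5 members passed the filter on low values, which asked for 2 or more libraries with an FPKM of 1 or more. Dehydrin 4 on 6B reached that level only in dry libraries and was at most 0.596 in wet libraries. It passed the filter through the treatment where it is high, so its dry–wet p-values are a description. The same holds for any listed locus below an FPKM of 1 in every wet library. The lone TAM111 HD wet library is assumed to vary like the other groups. Samples pooled plants, so p-values measure the spread between pools, and fewer cells of a type and less RNA per cell cannot be told apart.

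At GF in TAM112 all 4 loci rose under dry conditions, where 3.85% of all tested loci were called higher. Dehydrin 4 on 6B had the largest difference, 7.08 ± 0.90 (SE, adjusted p = 0.00354 by limma). Its wet libraries are listed at 0, so the size of its difference is set by the pseudocount, and with a pseudocount of 0.1 it was 10.4. Dehydrin 3 rose by 5.98 ± 0.59 on 6A (adjusted p = 0.00129 by limma), by 6.21 ± 0.78 on 6B (adjusted p = 0.00348) and by 6.04 ± 0.57 on 6D (adjusted p = 0.00112). The 3 dehydrin 3 loci differed from each other by less than 1 SE. On 6D, sums of separate rows under dry are set against spanning rows under wet conditions, and their part in the difference was not tested.

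At GF in TAM111 all 4 loci also rose under dry conditions, where 1.60% of all tested loci were called higher. Dehydrin 3 rose by 4.35 ± 0.59 on 6A (adjusted p = 0.00644 by limma), by 5.77 ± 0.78 on 6B (adjusted p = 0.00642) and by 5.27 ± 0.57 on 6D (adjusted p = 0.00227). Dehydrin 4 rose by 4.16 ± 0.90 (adjusted p = 0.0444 by limma), and this call was lost in 12 of 15 fits that left out 1 library. With a pseudocount of 0.1 the difference was 6.36, above dehydrin 3 on 6A and 6D. Without TAM111 GF dry replicate 1, 2 of the 4 loci were called, and without both libraries that stand apart 2 of the 4 loci were called, with 6A at an adjusted p of 0.0649 and dehydrin 4 at 0.16 by limma.

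At HD in TAM112 dehydrin 3 on 6D rose by 3.85 ± 0.57 (adjusted p = 0.0241 by limma), where 0.304% of all tested loci were called higher. The other 3 loci had differences of 2.69 ± 0.59 on 6A, 3.57 ± 0.78 on 6B and 3.78 ± 0.90 for dehydrin 4, with adjusted p of 0.124, 0.124 and 0.160 by limma. With a pseudocount of 0.1 the difference of dehydrin 4 was 6.93, above those of the dehydrin 3 loci. The dry libraries of this group lay far apart at every member. Without dry replicate 2, 3 loci were called, and none was called without dry replicate 1, without wet replicate 1, without wet replicate 2 or without both TAM111 libraries that stand apart.

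At HD in TAM111 none of the 4 loci was called by limma, where 0.0670% of all tested loci were called higher. The differences were 1.28 ± 0.72 on 6A, 1.99 ± 0.96 on 6B and 2.39 ± 0.70 on 6D, and 1.61 ± 1.10 for dehydrin 4, which went to 4.3 with a pseudocount of 0.1. Adjusted p ranged from 0.278 to 0.867 by limma. Without adjustment 4334 of the 52240 tested loci were below 0.05, and 1 of 4 members, on 6D, was. Without both libraries that stand apart 2 of 4 were. Averaged over the 4 comparisons, a contrast added after the values were seen, all 4 loci were called higher, by 3.58 ± 0.31 on 6A, 4.38 ± 0.41 on 6B, 4.39 ± 0.30 on 6D and 4.16 ± 0.47 for dehydrin 4, which was 7 with a pseudocount of 0.1. Of all tested loci, 2.69% were called higher in that mean, and the highest adjusted p of the members was 0.001 by limma. The summed leaf loci were also higher in the dry libraries of each cultivar and stage in the mean, and their part in these differences was not tested.

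**Figure D3:**
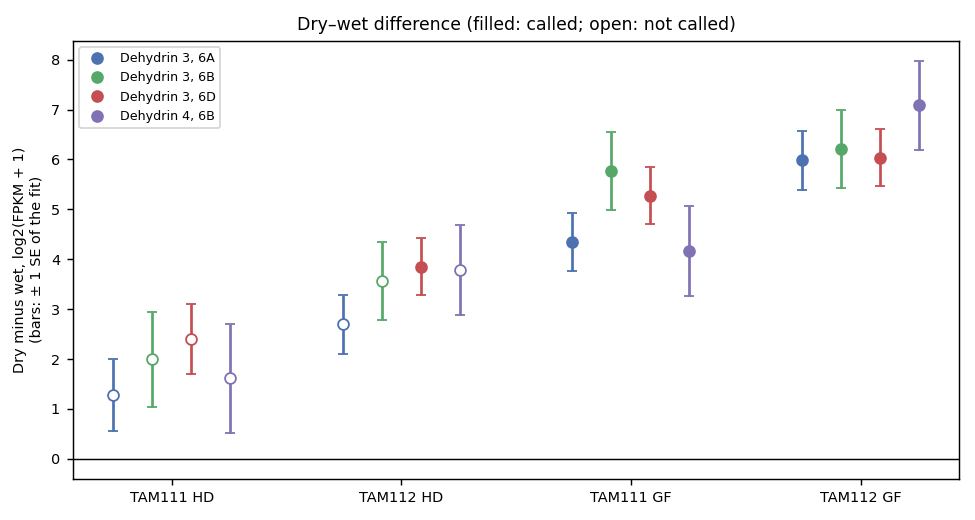
Difference of log2(FPKM + 1) between dry and wet libraries for the 4 separable loci in each cultivar and stage, with bars of 1 SE of the fit. The differences lay between 1.28 and 2.39 in TAM111 HD and between 5.98 and 7.08 in TAM112 GF, and filled points were called.

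Levels at GF and HD were compared within each cultivar and treatment. Under dry conditions the differences of GF against HD were positive at all 4 loci, between 1.79 and 2.89 in TAM111 and between 1.73 and 3.30 in TAM112. None of the 4 loci was called by limma in either cultivar, where 0.934% and 2.81% of all tested loci were called in either direction. Without adjustment 7210 and 9956 of the 52240 tested loci were below 0.05 in TAM111 and TAM112. The lowest adjusted p of the members was 0.101 in TAM111 and 0.0850 in TAM112, and 4 and 3 of the 4 loci were below 0.05 without adjustment. Without both libraries that stand apart these numbers were 1 and 4, and the lowest adjusted p was 0.344 and 0.133. Without TAM112 HD dry replicate 1, the high library of its group, 2 of the 4 loci were called in TAM112. On 6D the 4 dry GF libraries had 387 to 858 FPKM and the 4 dry HD libraries 69.2 to 363 FPKM. The ranges of the other 3 loci overlapped, and the share of all tested loci that separate as 6D did was not counted. Separate rows were summed on 6D in 3 of these dry GF libraries, while each dry HD value is a single row spanning both genes. The part of the rows was not tested.

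No member was called between the stages under wet conditions. Differences of GF against HD lay between -1.99 and 0.34 in TAM111 and between -1.35 and 0 in TAM112. By limma 0.209% and 0.218% of all tested loci were called there, and 3653 and 4341 of the 52240 were below 0.05 without adjustment. Of the 4 members, 0 and 1 were below 0.05 without adjustment. The locus with the unadjusted p below 0.05 was dehydrin 3 on 6A in TAM112, and it was not below 0.05 without both libraries that stand apart. Its higher HD wet value in TAM112, 22.7 FPKM, came from a single row spanning all genes of the locus, and the other wet TAM112 values from shorter rows.

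The dry–wet difference was larger at GF than at HD at each locus, but the difference between the stages did not pass the threshold. It was 2.55 to 3.78 in TAM111 and 2.19 to 3.30 in TAM112, with lowest adjusted p of 0.402 and 0.205 by limma. Of all tested loci 0.214% and 0.232% were called. Without adjustment 3 and 4 of the 4 members were below 0.05, against 3857 and 5340 of the 52240 tested loci. Without both libraries that stand apart 0 of 4 in TAM111 and 4 of 4 in TAM112 were. In the mean of both cultivars, also added after the values were seen, the difference was 3.18 ± 0.62 on 6A, 3.21 ± 0.83 on 6B, 2.53 ± 0.61 on 6D and 2.93 ± 0.95 for dehydrin 4. Adjusted p was 0.0738 to 0.25 by limma, and 0.480% of all tested loci were called. All 4 members were below 0.05 without adjustment, against 6428 of the 52240 tested loci. Leaving out TAM112 HD dry replicate 1 gave 2 called loci in this mean and 1 in TAM112 by itself, and leaving out TAM111 GF wet replicate 2 gave 1 in the mean. Stage and sampling day cannot be told apart.

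The cultivars were compared within each stage and treatment. Under dry conditions every member was higher in TAM112 in the group mean, by 0.80 to 2.17 at HD and by 0.71 to 2.58 at GF on the log2(FPKM + 1) scale. Dehydrin 4 had the largest of these differences at both stages, 2.17 ± 0.90 at HD and 2.58 ± 0.90 at GF. No member was called by limma, with adjusted p from 0.585 to 0.898 at HD and from 0.257 to 0.766 at GF. At each stage 1 of the 4 loci, dehydrin 4, was below 0.05 without adjustment, against 4081 and 6171 of the 52240 tested loci. Without both libraries that stand apart 0 of 4 were at HD, where the lowest adjusted p was 0.907, and 1 of 4 at GF. Of all tested loci 0.657% were called at HD and 1.62% at GF. With a pseudocount of 0.1, 0 of 4 members were below 0.05 without adjustment at either stage. At GF dehydrin 4 had 15.5 and 29.9 FPKM in the dry libraries of TAM111 against 104 and 175 in those of TAM112.

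Under wet conditions the difference of TAM112 against TAM111 lay between -0.75 and 0 at HD and between -0.77 and 0.33 at GF. No member was called by limma or fell below an unadjusted p of 0.05. Of the 52240 tested loci 0.861% and 0.810% were called, and 4605 and 3653 were below that level. The dry–wet difference was larger in TAM112 by 1.41 to 2.17 at HD and by 0.44 to 2.92 at GF. No member passed the threshold for that difference by limma, where 0.178% and 0.243% of all tested loci did. Without adjustment 0 and 1 of the 4 loci were below 0.05, against 3019 and 3268 of the 52240 tested loci. In the mean of both stages the dry–wet difference was larger in TAM112 by 1.01 to 2.54. Adjusted p was 0.609 to 0.892 by limma, and 0.157% of all tested loci were called. Without adjustment 2 of the 4 loci were below 0.05, against 3558 of the 52240 tested loci. Without both libraries that stand apart 0 of 4 loci were below 0.05 without adjustment at GF and in this mean.

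The 3 dehydrin 3 loci kept a similar balance under drought. In the 8 dry libraries 6D held 40.9% to 53.3% of the summed dehydrin 3 FPKM, 6A 24.7% to 30.1% and 6B 20.1% to 30.6%. The order was 6D, 6A, 6B in 6 dry libraries and 6D, 6B, 6A in the other 2. In the 4 dry GF libraries 6D held 49.0% to 53.3% and 6B 20.1% to 24.9%, and in the 4 dry HD libraries 40.9% to 49.1% and 25.1% to 30.6%. The rows behind these shares differed too. In 3 of the 4 dry GF libraries the 6D value is a sum of separate rows, with the opposite strand row included in TAM111 GF dry replicate 1, while all 4 dry HD libraries have a single row spanning both genes. Over stages, 6D held 49.0% to 53.3% in the 3 dry libraries with separate rows and 40.9% to 52.7% in the 5 with a spanning row, and the part of the rows in the difference between stages was not tested. Related copies can share fragments, so these shares are a description and were not tested.

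The balance was wider in the wet libraries, which hold far fewer fragments at these loci. There 6A held 25.9% to 53.4%, 6D 27.7% to 54.6% and 6B 3.67% to 25.3%. The order was 6A, 6D, 6B in 3 wet libraries and 6D, 6A, 6B in 4. The 3 wet HD libraries had 6A at 37.9% to 48.7%, above its range of 24.7% to 30.1% in dry libraries. TAM111 GF wet was above that range too, at 53.4% in replicate 1, which stands apart from its label, and 30.5% in replicate 2. TAM112 GF wet was within it, at 28.95% and 25.9%. In TAM111 HD wet and TAM112 HD wet replicate 1 the 6A value is a single row spanning its genes. The summed FPKM of dehydrin 3 was 169 to 1749 in dry and 18.1 to 57.0 in wet libraries.

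**Figure D4:**
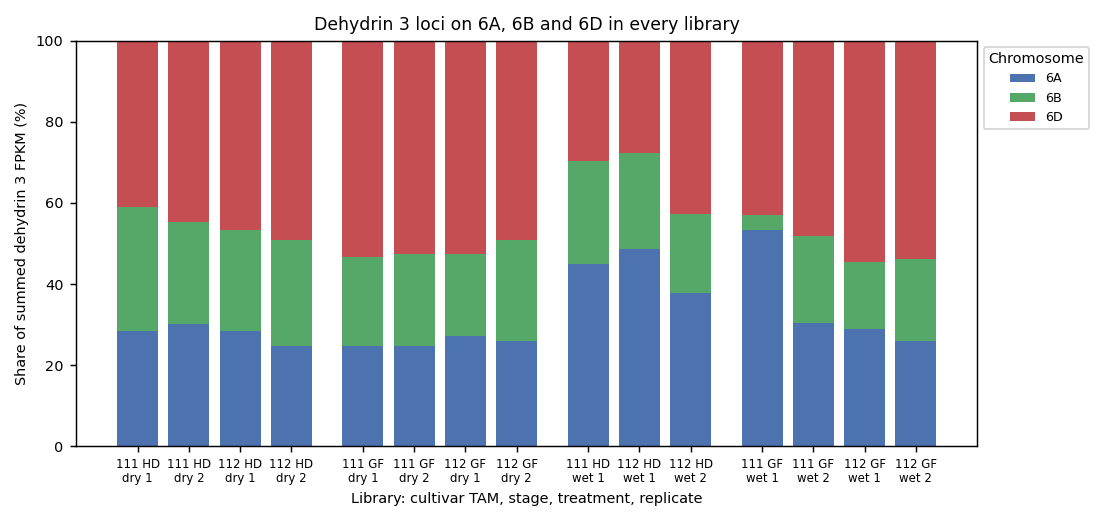
Share of the summed dehydrin 3 FPKM held by the 6A, 6B and 6D loci in each library, in percent, with dry libraries on the left and wet libraries on the right. The 6D share was 40.9% to 53.3% in dry libraries and ranged from 27.7% to 54.6% in wet libraries.

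Where the deposited rows separate the tandem genes on 6D, both were present in dry and wet leaves. TraesCS6D01G333000 and TraesCS6D01G333100 had an FPKM of 538 and 247 in TAM112 GF dry replicate 1, and of 561 and 296 in replicate 2. In TAM111 GF dry replicate 1 the values were 377 and 132, beside 145 for the opposite strand transcript. In wet libraries they were 5.44 and 2.33 in TAM111 GF replicate 1 and 10.4 and 6.52 in TAM111 HD. The first gene was thus 1.60 to 2.86 times the second in these 5 libraries, a ratio that was 1.36 in TAM111 GF dry replicate 1 if the opposite strand row is counted with the second gene.

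On 6A the separate genes could be read less often. TraesCS6A01G350500 had a row of its own in 5 libraries, all of them wet, and was listed at 0 in each. TraesCS6A01G350600 and TraesCS6A01G350700 were separate in TAM112 GF wet, with 3.34 and 1.96 FPKM in replicate 1 and 1.17 and 5.20 FPKM in replicate 2. The order of these genes was opposite in the 2 replicates, which rested on 19 and 7 fragments in the first and on 5 and 14 in the second.

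The remaining dehydrins of the water deprivation table, 10 loci on 5B, 5D, 6A and 6D, were chosen by the study on these samples. At GF 7 of 10 rose in TAM112 and 6 of 10 in TAM111, with none called lower, against 3.85% and 1.60% of all tested loci called higher, and their median differences were 3.40 and 2.24 against 0.07 and 0.10 over all tested loci. At HD 1 of 10 rose in TAM112, dehydrin 9 on 5B (XLOC_079533), against 0.304% of all tested loci, and none in TAM111. In TAM111 3 of 10 were below 0.05 without adjustment by limma, against 4334 of the 52240 tested loci. The highest member at GF was dehydrin 7 on 6D (XLOC_100238), with 5.62 ± 1.16 in TAM111 (adjusted p = 0.0385 by limma) and 6.55 ± 1.16 in TAM112 (adjusted p = 0.0142). The lowest was the Rab15-like dehydrin on 5D (XLOC_085852) in TAM111, 0.60 ± 0.56, and the cold shock protein CS66-like dehydrin on 6D (XLOC_098326) in TAM112, 1.31 ± 0.87, neither of which passed the threshold.

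Dehydrin 4 on 6D, TraesCS6D01G332900, is the nearest counterpart of the 6B member and was listed at 0 in all 7 wet libraries. In dry libraries at GF its FPKM was 35.5 and 33.8 in TAM111 and 122 and 60.7 in TAM112. At HD it was 0.445 and 0.364 in TAM111 dry and 24.0 and 0.38 in TAM112 dry. The 6B copy held 31.5% and 45.8% of the summed FPKM of both in TAM111 GF dry and 59.0% and 63.1% in TAM112 GF dry. At HD under dry conditions it held 64.4% and 92.0% in TAM111 and 62.7% and 90.4% in TAM112. The sums there were low, at 1.25 and 4.55 FPKM in TAM111 and 3.95 in TAM112 replicate 2, against 64.3 in TAM112 replicate 1. The catalogue gives this gene as 2 loci on opposite strands (XLOC_098329 and XLOC_100236) that share the same rows, so they are counted 2 times in the list above.

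LEA proteins other than dehydrins, which also accumulate in drying tissue, are a list of 14 loci that the study chose on these samples. At GF 6 of 14 rose in TAM111 and 9 of 14 in TAM112, and none fell, against 1.60% and 3.85% of all tested loci called higher. XLOC_003533 and XLOC_004420 on 1A have the same FPKM in 14 of 15 libraries, so their rows are counted 2 times. Their median differences were 2.40 and 2.98 at GF, and 0 and 1.01 at HD in TAM111 and TAM112. None was called at HD by limma, with 3 and 4 of 14 below 0.05 without adjustment, against 4334 and 4831 of the 52240 tested loci. The largest GF differences were those of an 11 kDa LEA protein on 6A (XLOC_088388), 4.13 ± 0.84 in TAM111 (adjusted p = 0.0355 by limma), and of a group 3 LEA protein on 1A (XLOC_004420), 5.25 ± 0.67 in TAM112 (adjusted p = 0.00361). The smallest were those of a LEA protein 6 on 7A (XLOC_102877) in TAM111, 0.63 ± 0.50, and of a LEA protein on 2B (XLOC_026215) in TAM112, 1.08 ± 0.40, and neither was called.

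Among 6 loci of ABA synthesis and signalling in the same table, 3 rose in TAM111 and 4 in TAM112 at GF, against 1.60% and 3.85% of all tested loci called higher, and none was called lower. A 9-cis-epoxycarotenoid dioxygenase on 5A (XLOC_071369), an enzyme of ABA synthesis, rose by 2.01 ± 0.44 in TAM111 (adjusted p = 0.0466 by limma) and by 2.10 ± 0.44 in TAM112 (adjusted p = 0.0267). Another locus of this enzyme, on 5D (XLOC_084623), had 3.96 and 7.06 FPKM in TAM111 GF dry and 0.438 and 0.670 in TAM111 GF wet. In TAM112 GF that locus had 8.96 and 2.33 under dry and 0.502 and 0.615 under wet conditions. The highest member was protein phosphatase 2C 37 on 2D (XLOC_030704), of a family known to hold back ABA signalling, at 2.74 ± 0.51 and 4.20 ± 0.51. Protein phosphatase 2C 27 on 6B (XLOC_094875) was the lowest, at -2.33 ± 0.74 in TAM111 and -1.48 ± 0.74 in TAM112, and was not called. At HD none of the 6 was called by limma. Without adjustment 3 and 4 of 6 were below 0.05 in TAM111 and TAM112, against 4334 and 4831 of the 52240 tested loci.

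**Figure D5:**
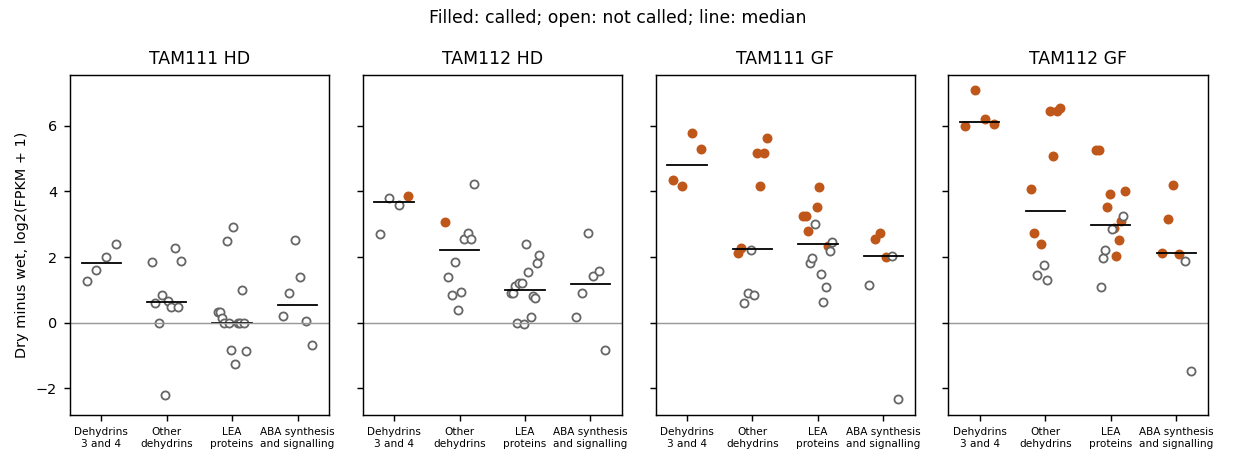
Difference of log2(FPKM + 1) between dry and wet libraries for the 4 separable dehydrin 3 and 4 loci, 10 other dehydrins, 14 LEA proteins and 6 ABA loci in each cultivar and stage, with medians as lines and called loci filled. The medians of dehydrins 3 and 4 were 1.80, 3.67, 4.81 and 6.12 in TAM111 HD, TAM112 HD, TAM111 GF and TAM112 GF, and those of the other dehydrins were 0.63, 2.20, 2.24 and 3.40.

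Across the 15 libraries the members followed each other, with Pearson correlations of log2(FPKM + 1) between 0.890 and 0.978 for pairs of the 4 separable loci. These libraries share treatments, so the correlation is a description. Of all tested loci other than the dehydrins named here, the 5 loci most like the members, by the mean of their correlations with all 5, reached 0.959 to 0.965. The first and the fourth were delta-1-pyrroline-5-carboxylate synthase 2 on 3B (XLOC_044951, TraesCS3B01G395900) and on 3D (XLOC_049806, TraesCS3D01G357200), the enzyme that commits glutamate to proline synthesis. Their FPKM was 283 to 515 on 3B and 198 to 366 on 3D in dry GF libraries, and 2.62 to 5.64 and 0.852 to 3.48 in wet libraries. The others were XLOC_060461 on 4B, XLOC_081820 on 5D (splicing factor U2AF small subunit A) and XLOC_011648 on 1D.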

How the data were processed

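The authors trimmed reads with Trimmomatic 0.38 and aligned them to IWGSC RefSeq v1.0 with TopHat2. Cufflinks then assembled transcripts in 1 library at a time, and the authors deposited the resulting FPKM values with their confidence bounds and a merged catalogue of loci.

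The fits were designed for the row of each reference gene, but 36881 of 99090 reference genes have no row under their own name in at least 1 library. The FPKM of all rows overlapping a locus was summed instead (bedtools 2.31.1, without strand). Rows on several loci count at each and held 8.01% to 16.8% of a library's FPKM. Fragments behind a row were estimated from its upper confidence bound.

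limma 3.58.1 in R 4.3.3 fitted log2(FPKM + 1) to 8 group means with a mean-variance trend and 7 residual degrees of freedom, and was tested on simulated data. Lists came from the study's table of water deprivation genes, and the highest and lowest locus of each was named, with the 5 loci whose profiles were most like the members. The members and lists were chosen with earlier results of these data known.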

Additional observations from a re-analysis of the deposited data

How the results depend on the processing

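The alternatives were a pseudocount of 0.1, no filter on low values, median-ratio scaling, quantile normalization, the replicate block, only the libraries of a comparison, each library left out in turn and, chosen after the data were seen, both TAM111 libraries that stand apart left out. The row of each reference gene could not be fitted for the members, because 5 of their 7 reference genes have no row under their own name in any library and are covered by assembled rows. The dry–wet difference of the 4 separable loci was positive in all 432 alternative values. Dry and wet libraries did not overlap at these loci within a cultivar and stage. Leaving out libraries or changing the pseudocount or filter could therefore not reverse the sign. The numbers of members called were as in the report under the pseudocount, the filter, median-ratio scaling and quantile normalization, except that dehydrin 4 in TAM111 GF went to an adjusted p of 0.0694 with no filter and 0.0531 with median-ratio scaling by limma. With only the libraries of a comparison in the fit, 0 of 4 loci were called higher under dry in TAM111 GF, in TAM112 HD and in TAM112 GF, where the fit has 2 residual degrees of freedom. By limma 4, 2 and 4 of them were then below 0.05 without adjustment, and in TAM111 GF and TAM112 GF 0 of all 52240 tested loci were called higher. Without both TAM111 libraries that stand apart, 2 were called in TAM111 GF and 0 in TAM112 HD, with 4 of 4 below 0.05 without adjustment in both by limma. With 1 library left out, the number of the 4 loci called higher under dry ranged from 2 to 4 in TAM111 GF and from 0 to 3 in TAM112 HD. It stayed at 4 in TAM112 GF and at 0 in TAM111 HD. For GF against HD in TAM112 dry, leaving out a library gave 0 to 2 called loci. For the change of the dry–wet difference from HD to GF it gave 0 to 1 in TAM112 and 0 to 2 in the mean of the cultivars. The TAM111 HD wet library is alone in its group, so leaving it out gives no value for its comparisons.

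Replicate numbers are shared between groups, but libraries with the same number did not deviate together, with correlations of -0.055 to 0.086 over 21 pairs of groups. With the replicate block, 0 of 4 loci were called in TAM112 HD, with 4 below 0.05 without adjustment, where dehydrin 3 on 6D had an adjusted p of 0.0505 by limma, and dehydrin 4 in TAM111 GF had 0.0519. The wet levels limit what can be read, since several rest on fewer than 20 fragments. Values of 0 are listed values and not shown to be absence, and FPKM of near copies can share fragments.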

Other observations

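The genes around the dehydrins, those numbered within 1000 of a member in the reference naming, gave 61 loci, of which 30 passed the filter on low values. Of these, 23 are not among the listed dehydrins, with TraesCS6B01G383200 counted 2 times, as loci on opposite strands (XLOC_094797 and XLOC_095977) with the same FPKM in all 15 libraries. By limma 6 of the 23 were called higher under dry conditions in TAM112 GF and 1 in TAM111 GF, against 3.85% and 1.60% of all tested loci. At HD 0 of the 23 were called in either cultivar, with 2 below 0.05 without adjustment in each. Over all 52240 tested loci 4334 were below that level in TAM111 and 4831 in TAM112. The median differences of log2(FPKM + 1) of the 23 were 0.93 and 0.38 at GF and 0.41 and -0.12 at HD in TAM112 and TAM111. The medians over all tested loci were 0.07 and 0.1 at GF and 0.042 and 0 at HD.

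The highest of the 23 at GF was TraesCS6B01G383800 (XLOC_095980), at chr6B_part2:206500624-206501231 on the minus strand, outside the dehydrin 3 locus on 6B. Its FPKM was 84.6 and 37.4 in TAM112 GF dry, 20.7 and 10.7 in TAM111 GF dry, 22.0 and 0.584 in TAM112 HD dry, and at most 0.631 in the other libraries. Like dehydrin 4, it was high in TAM112 HD dry replicate 1 and near 0 in wet leaves. Its difference between dry and wet was 5.55 ± 1.02 in TAM112 GF (adjusted p = 0.0164 by limma) and 3.69 ± 1.02 in TAM111 GF (adjusted p = 0.101), which was not called. The lowest of the 23 in TAM112 GF was XLOC_095974 on 6B, at -1.04. No product name for TraesCS6B01G383800 was used here.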
